A study of Mus musculus with 23 samples.

Results

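The Igf2r and Airn locus was taken as every window of percent methylation with its midpoint (GRCm38) between positions 12680000 and 12870000 of chromosome 17, a region of 190.0 kb. It held 38 of the 333984 windows measured at embryonic day (E) 6.5 and 46 of the 402812 windows measured at E7.5, where each parental allele was also measured. Igf2r (ENSMUSG00000023830.14, positions 12682406 to 12769664, minus strand) encodes the receptor that carries insulin-like growth factor 2 to the lysosome. Airn (ENSMUSG00000078247.4, positions 12741311 to 12860136, plus strand) is a long non-coding RNA that starts in an intron of Igf2r and runs antisense to it. The start sites lay 28353 bp apart, so Airn crosses the Igf2r promoter and ends inside Mas1, a receptor gene that it overlaps by 19058 bp.

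Igf2r is a maternally expressed imprinted gene, and Airn is expressed from the paternal allele. The Airn promoter is a maternal germline differentially methylated region (gDMR), meaning that the oocyte methylates it and the sperm does not. By the study's account, oocytes that lack both DNMT3A and DNMT3B pass on no DNA methylation. The methylated maternal copy is silent, whereas the unmethylated paternal copy transcribes Airn through the Igf2r promoter. Paternal methylation of the Igf2r promoter itself is known as a somatic mark that is gained after fertilisation. In the extra-embryonic lineage, Airn is also known for silencing more distant genes of the same domain.

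The libraries were made by post-bisulphite adaptor tagging (PBAT), which reads methylation after bisulphite has converted unmethylated cytosine. Wild-type embryos were hybrids of C57BL6/Babr (B6) and CAST/Ei (CAST), written with the mother first as B6/CAST or CAST/B6. The matDKO/CAST embryos came from CAST males and B6/129 females whose floxed Dnmt3a and Dnmt3b were deleted by Zp3-cre, which acts in the growing oocyte. These embryos were Dnmt3a -/+ and Dnmt3b -/+ through the mother, and their maternal genome carried 129 sequence that both wild-type crosses lacked. At E6.5 each library was 10% of MNase-digested chromatin from a pool of 4 epiblasts or of 8 extra-embryonic ectoderms (ExE), the tissue that gives rise to part of the placenta. The E6.5 epiblast had 3 B6/CAST, 3 CAST/B6 and 2 matDKO/CAST libraries, and the E6.5 ExE had 2, 2 and 3. The E7.5 libraries came from single embryos, 2 for each tissue and wild-type cross, and no matDKO/CAST library of that day was analysed here. E6.5 and E7.5 differ in library type and pooling and were tabulated separately, so the days are given side by side and were not tested against each other.

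Across the autosomes, mean methylation at E6.5 ran from 65.9 to 79.4% in wild-type epiblast libraries, from 53.5 to 66.2% in wild-type ExE, from 53.1 to 54.7% in matDKO/CAST epiblast and from 39.6 to 41.8% in matDKO/CAST ExE. In each E6.5 tissue the B6/CAST libraries were below the CAST/B6 libraries. At E7.5 the means ran from 71.7 to 75.6% in epiblast and from 56.0 to 59.2% in ExE. The tables give no coverage, so the depth behind each percentage is unknown and neither intervals nor a coverage minimum could be applied. The windows at the locus each held 40 to 63 CpGs, so they were short where CpGs were dense (312 bp at the shortest) and long elsewhere (10590 bp at the longest). The tables hold methylation alone, so the tissue labels could not be checked against expressed markers. Replicates were treated as separate samples, and every p-value measures only the spread between them.

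Both promoters and the gDMR were read from the RefSeq reference (GRCm38.p6) because they separate the elements that the windows below resolve. The capitals mark CpGs, the positions that can be methylated. The Airn promoter (chr17:12741061-12741360, plus strand) holds only 3 CpGs in 300 bases, fewer than the median of 7.0 over 32851 mouse promoters of that length. The Igf2r promoter (chr17:12769657-12769956, minus strand) holds 34 CpGs, a number that 7.73% of promoters reach. The gDMR stretch shown (chr17:12741748-12742047, plus strand) lies just inside Airn and holds 30 CpGs. It was picked as the 300 bases richest in CpGs of its window, so its CpG count was raised by that choice.
Airn promoter: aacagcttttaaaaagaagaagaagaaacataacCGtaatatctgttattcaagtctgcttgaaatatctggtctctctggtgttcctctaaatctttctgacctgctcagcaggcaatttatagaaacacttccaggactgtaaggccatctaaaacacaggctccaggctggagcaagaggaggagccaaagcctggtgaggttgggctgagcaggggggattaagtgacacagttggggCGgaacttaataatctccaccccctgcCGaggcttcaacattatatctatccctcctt
Airn gDMR: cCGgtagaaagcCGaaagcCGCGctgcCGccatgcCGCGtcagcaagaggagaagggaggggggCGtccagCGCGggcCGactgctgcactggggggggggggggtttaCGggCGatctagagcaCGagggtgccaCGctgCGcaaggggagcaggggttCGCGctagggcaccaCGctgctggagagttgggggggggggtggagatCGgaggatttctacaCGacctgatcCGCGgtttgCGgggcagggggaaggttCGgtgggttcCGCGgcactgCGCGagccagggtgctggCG
Igf2r promoter: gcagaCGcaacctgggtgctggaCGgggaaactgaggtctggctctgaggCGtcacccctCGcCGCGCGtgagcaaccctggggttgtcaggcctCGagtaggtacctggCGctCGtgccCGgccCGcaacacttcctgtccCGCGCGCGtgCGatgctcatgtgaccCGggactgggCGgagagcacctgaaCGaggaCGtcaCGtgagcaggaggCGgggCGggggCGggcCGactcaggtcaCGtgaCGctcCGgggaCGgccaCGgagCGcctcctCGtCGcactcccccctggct
The motif TGCCGC, searched on both strands, is the one bound by ZFP57, a zinc finger protein known to protect imprints after fertilisation. It occurs 2 times on the plus strand and 1 time on the minus strand of the gDMR stretch and is not present in either promoter stretch, against 11.6% of all promoters of the same length that hold it. The motif contains a CpG, so picking the gDMR stretch for its CpGs favoured this contrast. Among the 46 windows of the E7.5 tables, 17 hold the motif. It was densest in the window over the gDMR (chr17:12741741-12742376), with 5 matches or 7.86 per kb. The next densest was a short window inside the Igf2r first exon and intron (chr17:12769190-12769501), with 1 match or 3.21 per kb.

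The parental alleles were compared first, at E7.5, to ask where along the locus the maternal and paternal copies differed. In the CpG-dense window of the Airn gDMR, the maternal allele was highly methylated and the paternal allele was low. The window at the Igf2r start was near 0% on the maternal allele and partly methylated on the paternal allele. In the window directly over the CpG-dense gDMR (chr17:12741741-12742376, Airn and Igf2r introns), few libraries had a value for both alleles. The maternal allele there was at 98.3 and 95.2% in 2 epiblast libraries and at 97.2 and 88.4% in 2 ExE libraries. The paternal allele was at 2.86% in 1 epiblast library and at 0% in all 4 ExE libraries. No maternal value overlapped a paternal value, and the missing alleles kept this window out of the test. The long window that holds the Airn start (chr17:12737437-12741740) also lacked alleles and was not tested. Its paternal allele was not low, at 63.6 and 85.0% in epiblast and at 45.8, 57.3 and 32.8% in ExE. Its maternal allele was at 75.7, 60.7 and 66.4% in ExE and had no value in epiblast.

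The adjoining window downstream in Airn (chr17:12742377-12745796, introns of both genes) was measured on both alleles of all 8 libraries. In the epiblast, the maternal allele was at 95.3 and 87.7% in B6/CAST and at 95.4 and 92.2% in CAST/B6. The paternal allele in the same libraries was at 22.5, 19.0, 41.3 and 42.1%. In ExE, the maternal allele was at 92.5, 89.8, 97.9 and 91.3%, and the paternal allele at 20.2, 13.5, 16.7 and 25.0%, in the same order of crosses. Every maternal value was thus above every paternal value, in both tissues and both crosses. The maternal allele was higher by 61.4 ± 4.07 percentage points (SE, n = 4 libraries) in epiblast, with an adjusted p of 0.0414 from limma, and by 74.0 ± 4.41 points (SE, n = 4) in ExE, with an adjusted p of 0.0366.

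It was the only window of the locus that passed this test, 1 of 27 tested in epiblast and 1 of 39 in ExE. Over all autosomal windows, 0.00629% in epiblast and 0.00503% in ExE were called with the maternal allele higher, and 0.00713% and 0.00565% had a difference at least as large. With 4 libraries and 2 residual degrees of freedom the call was fragile: it was lost in both tissues when any 1 of the 4 libraries was left out, although the difference stayed between 60.3 and 62.4 points in epiblast and between 70.3 and 77.8 points in ExE. In epiblast it was also lost on a logit scale, without the cross term, with limma's trend and robust settings and with at most 1 missing value allowed (adjusted p = 0.378, 0.0605, 0.955 and 0.164), and in ExE under the last 2 of these (adjusted p = 0.243 and 0.0725). Over all 8 libraries, flipping the signs of the differences in every way (an exact, two-sided permutation test) gave p = 0.00781, the smallest that 8 libraries allow. That p was 0.0422 after Benjamini-Hochberg adjustment over the 27 windows of the locus with 8 complete libraries. Both tissues were taken from each embryo, and the labels do not say whether an epiblast and an ExE library came from the same embryo. If some did, the 8 libraries are not independent, and this p and the others over 8 libraries are too small.

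**Figure D1:**
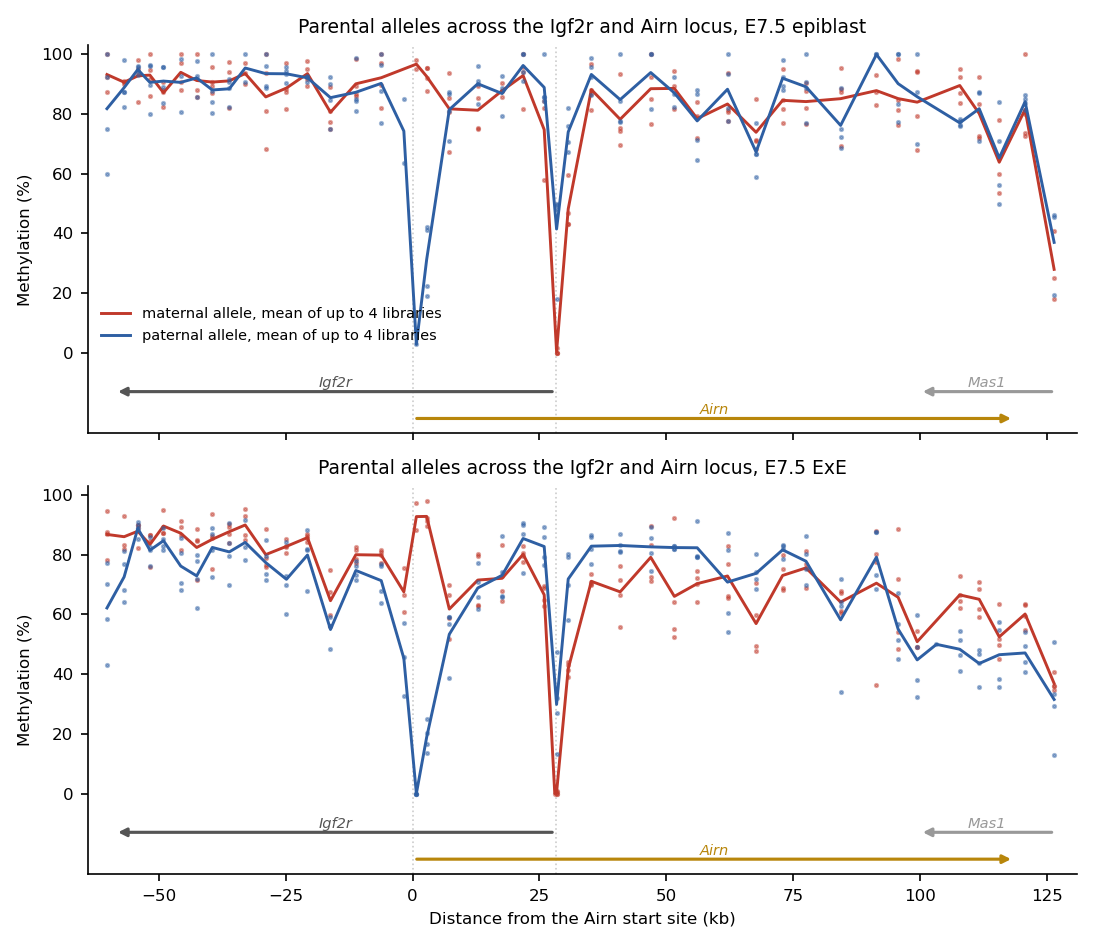
Percent methylation of the maternal allele (red) and the paternal allele (blue) in every window of the locus, against distance from the Airn start site in kb, in E7.5 epiblast (top) and ExE (bottom). Points are single libraries and lines join the means of up to 4 libraries. Dotted lines mark the Airn start and the Igf2r start 28353 bp away. The blue line falls at the gDMR just past the Airn start, and both lines fall at the Igf2r start, the red one further.

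At the Igf2r start, methylation was almost wholly on the paternal allele, and there only in part. In the window that holds the Igf2r start (chr17:12769502-12769906, Igf2r exon and intron and Airn intron), the maternal allele was at 0, 0, 1.52 and 0% in the 4 epiblast libraries and at 0, 0, 0.667 and 0.758% in the 4 ExE libraries. The paternal allele was at 18.2, 50.0, 48.1 and 49.7% in epiblast and at 26.9, 13.2, 47.4 and 31.9% in ExE, with B6/CAST before CAST/B6 in each list. The alleles did not overlap in any library or between libraries. In the epiblast libraries with paternal values of 50.0 and 49.7%, all reads together gave 6.35 and 9.09%, so the size of the paternal level depends on which reads are used. The paternal excess was estimated by limma at -41.1 ± 6.0 points (maternal minus paternal, SE, n = 4) in epiblast and at -29.5 ± 4.83 points (SE, n = 4) in ExE.

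Neither passed adjustment over all windows, with adjusted p of 0.941 and 0.777 from limma. Only 0.00587% and 0.0154% of tested windows had a paternal excess at least as large. The exact sign-flip permutation test over 8 libraries gave the smallest possible p again, 0.00781 (0.0422 adjusted over 27 windows). On a logit scale the ExE window passed, with an adjusted p of 0.0136 from limma.

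A paternal excess was also measured beside the Igf2r start, upstream in both tissues and downstream in ExE. Upstream of Igf2r (chr17:12769932-12774062, within an Airn intron), the epiblast maternal allele was at 46.7, 43.3, 59.5 and 43.3% and the paternal allele at 75.9, 82.1, 67.4 and 70.7%. In ExE the values there were 42.9, 44.0, 39.0 and 41.4% on the maternal allele and 79.4, 58.1, 80.4 and 69.7% on the paternal allele. The alleles did not overlap, with a fitted difference of -25.8 ± 5.03 points (SE, n = 4) in epiblast and -30.0 ± 5.32 points (SE, n = 4) in ExE and an exact sign-flip permutation p of 0.00781 over 8 libraries. In the Igf2r intron just downstream of the start (chr17:12765331-12769189) the difference in ExE was -16.2 ± 3.93 points (SE, n = 4), and all 4 paternal values, from 76.7 to 89.2%, exceeded all 4 maternal values, from 62.8 to 69.6%. In the epiblast its 3 measured differences were -3.57, -26.5 and -1.34 points, and the alleles overlapped. In each of the 7 libraries of this window with both alleles, the value from all reads lay below the mean of the alleles, with differences of -23.2 to -9.49 points. These are bulk values, so partial methylation in every cell and full methylation in some cells cannot be told apart.

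No other window of the locus passed the limma test for a parental difference. In epiblast, the alleles stood in the same order in every library in 9 of 27 windows, those at the promoters included, against 11.8% of all tested windows. In ExE, they did so in 16 of 39 windows, against 12.6%. The maternal allele was the higher one in 9 of these 16, against 6.32% of all tested windows, and the paternal allele in 7, against 6.27%. In the Igf2r body below the Airn promoter, the ExE maternal allele was higher on average in 13 of 14 windows, with a median difference of 6.31 points against -0.0786 over all tested windows, and in every library in 5. In the epiblast, that stretch was split 5 to 5, with a median of -0.357 points. With at most 1 missing value allowed, the maternal allele was higher in 9 of 14 epiblast windows there, with a median of 2.17 points. In ExE it was then higher in 15 of 16, with the median still at 6.31 points. The test of the difference between tissues called none of the 27 windows by limma (2 at an unadjusted p under 0.05), and none of 237650 over the autosomes (12852 at an unadjusted p under 0.05).

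Along the Airn body beyond Igf2r, the sign of the parental difference was not uniform. In ExE, 9 of 15 windows had a paternal excess and 6 a maternal excess, from -16.8 to 21.5 points. In the window chr17:12779119-12785355 the paternal allele was higher in all 8 libraries, with differences of -31.2 to -3.33 points and a mean of -11.1 (maternal minus paternal). Near the far end, in chr17:12846902-12851493, where Airn overlaps Mas1, the maternal allele was higher in all 8 libraries, by 7.63 to 19.1 points in epiblast and by 10.1 to 31.9 points in ExE. Both windows gave an exact sign-flip permutation p of 0.00781 (0.0422 adjusted over 27 windows). In the next window (chr17:12851495-12854566), the 4 ExE differences were 24.7, 26.0, 22.9 and 12.4 points, while the 3 epiblast differences were -14.8, 21.6 and -4.17 points.

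The second comparison asked how methylation of each element depended on DNMT3A and DNMT3B in the oocyte, by setting matDKO/CAST against wild type at E6.5, where both alleles were read together. The Airn gDMR lost most of its methylation in the matDKO/CAST epiblast, while values at the Igf2r promoter differed by less than their spread. In the window that covers the gDMR at E6.5 (chr17:12741390-12742174, 73.9 CpGs per kb), the wild-type epiblast was at 62.6, 35.7 and 67.3% in B6/CAST and at 73.5, 82.9 and 19.6% in CAST/B6. The matDKO/CAST epiblast was at 0 and 2.78%, below every wild-type library. Methylation fell by 55.5 ± 15.6 points (SE, 2 against 6 libraries), with an adjusted p of 0.0195 from limma.

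The next window downstream (chr17:12742192-12744741) was at 54.9, 92.3, 68.4, 67.4, 64.7 and 68.4% in wild-type epiblast and at 9.76 and 21.4% in matDKO/CAST. It fell by 53.8 ± 8.89 points (SE), with an adjusted p of 0.00393 from limma. The long, CpG-poor window that holds the Airn start at its end (chr17:12734034-12741369, 7.36 CpGs per kb) was at 81.1, 94.1, 89.6, 80, 91.7 and 89.4% in wild type, against 69 and 25% in matDKO/CAST. It fell by 40.6 ± 10.3 points (SE), with an adjusted p of 0.0136 from limma. In all 3 windows both matDKO/CAST libraries were below all 6 wild-type libraries, for which a two-sided exact permutation test gave p = 0.0357, the smallest that 2 against 6 allow.

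These losses stood against a genome that had itself lost methylation. In the epiblast 13 of 27 windows tested at the locus were called lower in matDKO/CAST, against 53.0% of all windows, and the median difference was -17.9 points at the locus and -20.8 points over all windows. Falls as large as those of the gDMR window, the downstream window and the start window were seen in 0.364%, 0.542% and 6.25% of tested windows. When each library's autosomal mean was subtracted, the gDMR window differed by -34.7 points and the downstream window by -32.9 points (adjusted p = 0.169 and 0.0601 from limma), and no window of the locus or of the genome was called. With B6/CAST alone as the wild type, the cross with the same direction as matDKO/CAST, no window was called either. Without matDKO/CAST epiblast replicate 3 the start window differed by -18.6 points with an adjusted p of 0.0823 from limma, so that call rested on 1 library. The matDKO/CAST library that remained was assumed to vary like the wild-type groups. With B6/CAST alone the start window differed by -41.3 points with an adjusted p of 0.113.

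**Figure D2:**
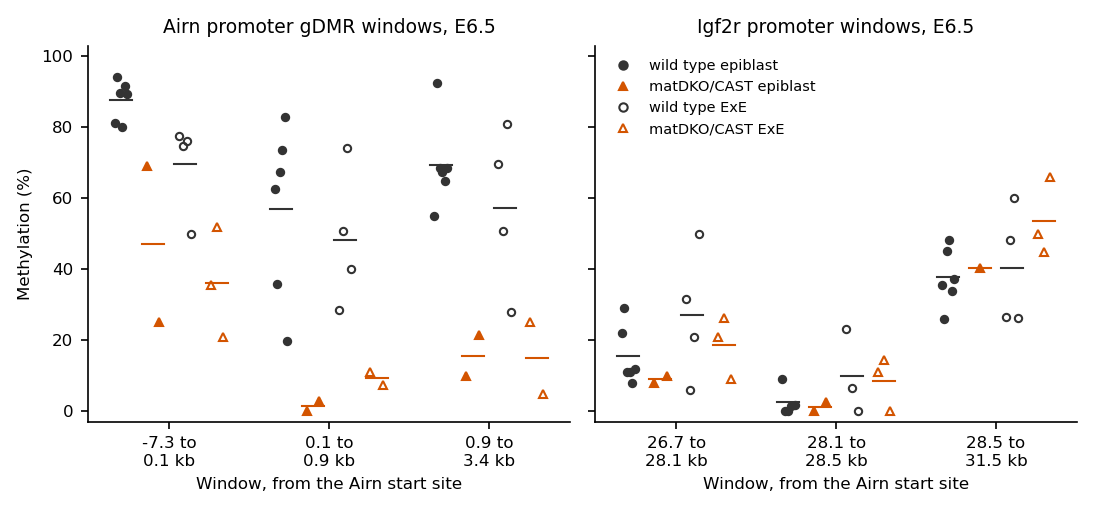
Percent methylation, alleles not separated, in the E6.5 windows at the Airn promoter gDMR (left) and the Igf2r promoter (right), placed by their distance from the Airn start site in kb. Points are single libraries and bars are group means; the matDKO/CAST epiblast libraries are at 0 and 2.78% in the gDMR window and at 7.84 and 10% in the inner Igf2r window.

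In ExE the gDMR window was at 28.4 and 50.6% in B6/CAST and at 74.1 and 40% in CAST/B6. The matDKO/CAST ExE was at 10.9 and 7.41% in 2 libraries and had no value in the other. The downstream window was at 69.6, 50.6, 81.0 and 28% in wild type and at 25 and 4.76% in the 2 matDKO/CAST libraries with a value. No matDKO/CAST value reached a wild-type value in either window. Fitted without the missing library, the gDMR window fell by 39.1 ± 11.0 points (SE), with an adjusted p of 0.0328 from limma, and the downstream window differed by -42.4 ± 15.2 points (SE), with an adjusted p of 0.0596. The two-sided exact permutation p was 0.133 for each window, where 2 against 4 libraries cannot go below 0.0667.

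The Airn start window had a value in every ExE library and fell by 33.6 ± 8.89 points (SE), with an adjusted p of 0.0205 from limma. Its wild-type values of 77.5, 74.8, 76.2 and 50% overlapped the matDKO/CAST values of 35.4, 51.9 and 20.8%, and the two-sided exact permutation p was 0.0857. That call was lost without any 1 of the B6/CAST replicates, CAST/B6 replicate 1, or matDKO/CAST replicate 1 or 3, with differences from -34.3 to -26.0 points. At the locus, 15 of 32 windows tested in ExE were called lower in matDKO/CAST, against 49.0% of all windows, with a median of -16.3 points against -18.7 over all windows. That count fell to 4 and 3 without B6/CAST replicate 1 and 2, to 7 without CAST/B6 replicate 1, and to 9 and 8 without matDKO/CAST replicate 2 and 3. It was 7 on a logit scale and 0 both with B6/CAST alone as the wild type, where the Airn start window differed by -40.1 points (adjusted p = 0.138 from limma), and after subtraction of each library's mean, where it differed by -15.2 points (adjusted p = 0.457).

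The Igf2r start itself was at 23.2% or less in every library with a value, in both genotypes. In the window that holds the Igf2r start (chr17:12769420-12769808, 129 CpGs per kb), the wild-type epiblast was at 8.95, 0, 0, 1.45 and 1.79% in the 5 libraries with a value and the matDKO/CAST epiblast at 0 and 2.5%. In ExE the wild type was at 23.2, 6.40 and 0% in 3 libraries and matDKO/CAST at 10.9, 14.3 and 0%. The groups overlapped, and with 1 missing library left out the fitted differences were -1.53 ± 4.88 points (SE, adjusted p = 0.812 from limma) in epiblast and 1.00 ± 7.20 points (SE, adjusted p = 0.916) in ExE. The inner window (chr17:12768036-12769419) was at 7.89 to 29.2% in wild-type epiblast against 7.84 and 10% in matDKO/CAST, a difference of -6.51 ± 5.61 points (SE, adjusted p = 0.332 from limma). In ExE it was at 31.5, 5.93, 20.8 and 50% in wild type and at 20.8, 26.2 and 9.09% in matDKO/CAST, a difference of -8.34 ± 9.19 points (SE, adjusted p = 0.440).

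Upstream of the Igf2r start (chr17:12769809-12772836), matDKO/CAST ExE was at 50, 44.9 and 66.1% and wild-type ExE at 26.6, 48.2, 60 and 26.2%. The difference of 13.4 ± 9.72 points (SE), with more methylation in matDKO/CAST, did not pass the test (adjusted p = 0.250 from limma), although only 0.0350% of tested windows had one as high. The matDKO/CAST ExE overlapped the wild type there.

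**Figure D3:**
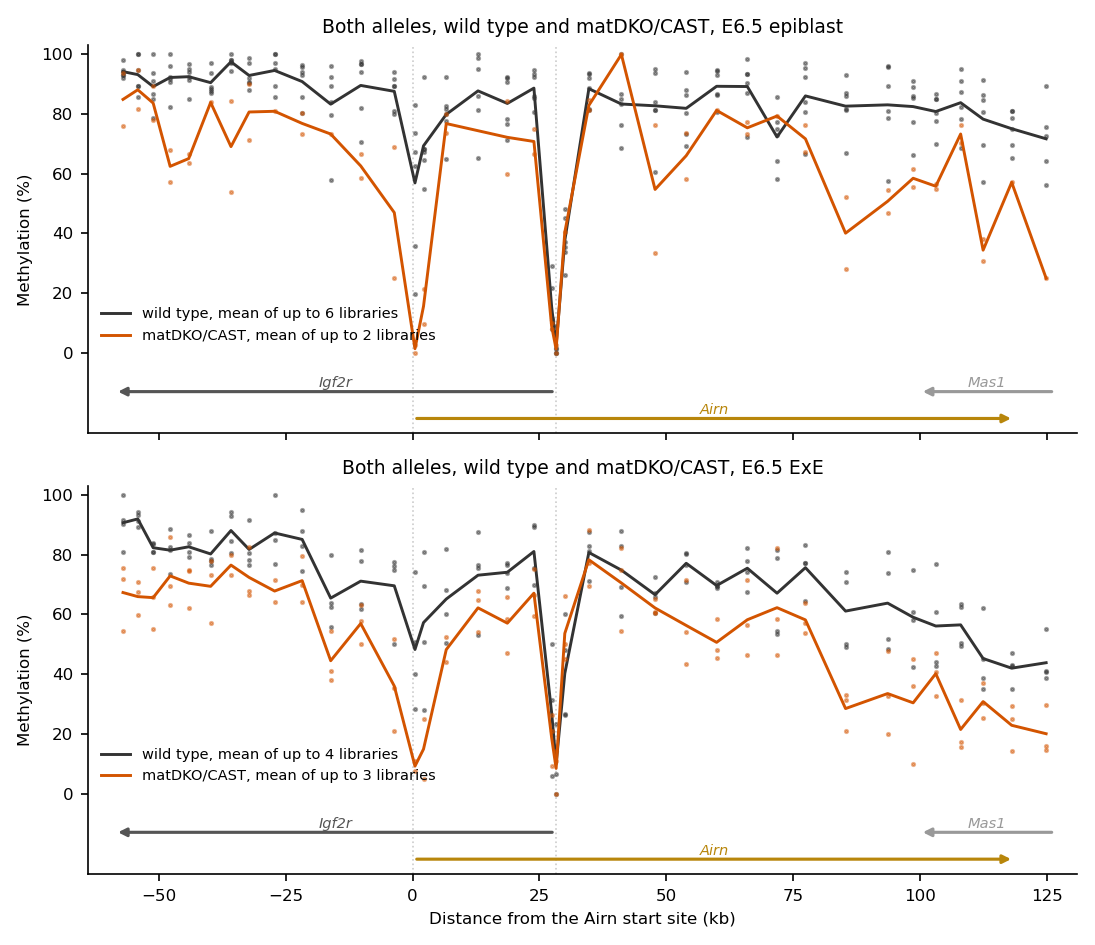
Percent methylation of both alleles together in wild type (dark) and matDKO/CAST (orange) along the locus at E6.5, against distance from the Airn start site in kb, in epiblast (top) and ExE (bottom). Points are single libraries and lines join group means. The matDKO/CAST line lies lower along most of the locus, the distal Airn windows included. At the gDMR just inside Airn the matDKO/CAST epiblast is at 0 and 2.78%, and the lines meet at the Igf2r start.

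Along the bodies of both genes, the Igf2r promoter windows apart, the matDKO/CAST estimates were negative in every window without a missing value, and the calls below stand beside 53.0% of all windows in epiblast and 49.0% in ExE. In the Igf2r body below Airn, all 9 epiblast and all 10 ExE estimates were negative, with medians of -14.0 points in each tissue and 4 windows called in each. In the Airn body beyond Igf2r, all 11 epiblast and all 15 ExE estimates were negative, and 5 and 8 of them were called. With at most 1 missing value, 2 of 15 epiblast estimates there were positive, up to 16.6 points, and their median was -15.9 points in place of -24.0. There the falls in the distal stretch included 43.9 ± 7.57 points (SE) in the epiblast in chr17:12851842-12855755 and 42.6 ± 7.27 points (SE) in chr17:12821385-12831974. Between the promoters the epiblast estimates were -3.07 to -17.9 points. The gDMR segment was the one where all windows tested in the epiblast, 3 of 3, were called. Of these, chr17:12734034-12741369 lies almost wholly upstream of the Airn start and was at 80 to 94.1% in wild-type epiblast. Without matDKO/CAST epiblast replicate 3 it differed by -18.6 points.

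The third comparison asked whether the tissues differed at the locus. Most windows of the gene bodies, as of the genome, were called higher in epiblast than in ExE on both days, as was the Airn start window, and no window of the Igf2r promoter was. At E6.5, 19 of 36 windows were called higher in epiblast and none lower, against 59.6% of all windows called higher. At E7.5, 38 of 46 windows were called higher and none lower, against 82.9% over all windows. The median difference was 10.6 points at E6.5 and 10.8 points at E7.5, below the 16.6 and 16.5 points over all windows. The E6.5 count ranged from 9 to 12 when the unnumbered B6/CAST epiblast library, any CAST/B6 epiblast replicate, ExE B6/CAST replicate 1 or ExE CAST/B6 replicate 2 was left out.

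The Airn start window of E6.5 was 18.0 ± 5.61 points (SE) higher in epiblast, with an adjusted p of 0.0169 from limma, which became 0.0527 without ExE CAST/B6 replicate 2. At E7.5 the window with the Airn start (chr17:12737437-12741740) was at 55.5, 70.0, 57.5 and 53.0% in epiblast and at 52.2, 41.8, 54.2 and 33.4% in ExE, and the tissues overlapped. It was 13.6 ± 5.13 points (SE) higher in epiblast, with an adjusted p of 0.0334 from limma. Leaving out either library numbered 2 of B6/CAST, epiblast CAST/B6 replicate 1 or ExE CAST/B6 replicate 2 ended that call, with differences of 9.88 to 13.1 points. Relative to each library's autosomal mean the start windows differed by 1.54 points at E6.5 and by -2.73 points at E7.5 (adjusted p = 0.868 and 0.691 from limma). The gDMR windows themselves, with both alleles read together, differed by 8.66 ± 12.1 points (SE) at E6.5 and by 7.69 ± 8.79 points (SE) at E7.5, and neither passed the test (adjusted p = 0.545 and 0.432 from limma).

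At the Igf2r promoter no window was called, and at E7.5 its 4 estimates had both signs, from -5.06 to 8.09 points. The start window of E7.5 was at 6.60 and 6.35% in B6/CAST epiblast, at 20.2 and 9.09% in CAST/B6 epiblast, at 13.3 and 14.8% in B6/CAST ExE and at 16.9 and 13.7% in CAST/B6 ExE, so the tissues overlapped and the highest value was an epiblast one. The difference of -4.12 ± 2.96 points (epiblast minus ExE, SE) did not pass the test (adjusted p = 0.218 from limma), although only 1.83% of windows had one as low. At E6.5 the inner Igf2r window differed by -11.6 ± 7.68 points (SE, adjusted p = 0.201), with 0.821% of windows as low. Each passed without 1 library, at -7.04 points (adjusted p = 0.0206 from limma) without epiblast CAST/B6 replicate 1 at E7.5 and at -19.7 points (adjusted p = 0.0379) without ExE B6/CAST replicate 2 at E6.5. Relative to each library's own autosomal mean, both passed, with -28.1 points (adjusted p = 0.0227) at E6.5 and -20.5 points (adjusted p = 0.000485) at E7.5 from limma. On that scale 2 windows of the locus were higher in epiblast and 2 in ExE at E6.5, against 6.25% and 8.66% of all windows, and 2 and 13 at E7.5, against 19.0% and 20.8%. In the Igf2r body 10 of 12 estimates at E6.5 and 15 of 16 at E7.5 were then negative, and 1 and 6 of these were called. No share of negative estimates over all windows was taken for comparison.

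The widest gap between tissues lay at the distal end of the locus, around the end of Airn. At E6.5 chr17:12851842-12855755 and chr17:12855879-12862984 were each 33.1 points higher in epiblast (SE 5.74 and 4.48, adjusted p = 0.00117 and 0.000529 from limma). At E7.5 chr17:12859387-12864771 was 31.4 ± 3.02 points (SE) higher in epiblast, with an adjusted p of 9.3e-05 from limma. All 3 windows also passed relative to the library means, by 16.6, 16.6 and 15.0 points. As a share of all windows, 6.85%, 6.81% and 6.40% had a difference as large.

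Read by allele, windows were called higher in epiblast on both parental copies. On the maternal allele 12 of 31 windows were called higher in epiblast, against 59.0% of all windows, and on the paternal allele 16 of 32, against 59.6%. In the Igf2r body 2 of 11 maternal and 7 of 13 paternal windows were called, and in the Airn body beyond Igf2r 6 of 12 and 5 of 11. In the window downstream of the gDMR (chr17:12742377-12745796) the maternal allele differed by -0.238 ± 3.77 points (SE, adjusted p = 0.960 from limma) and the paternal allele was 12.4 ± 4.71 points (SE) higher in epiblast, with an adjusted p of 0.0454. By the values above, the paternal alleles of the tissues were close in B6/CAST (22.5 and 19.0% against 20.2 and 13.5%) and apart in CAST/B6 (41.3 and 42.1% against 16.7 and 25.0%), a difference between crosses that was not tested. The test of the parental difference between tissues gave -12.6 ± 5.73 points (SE, adjusted p = 0.912) there, so the alleles were not shown to differ in their tissue response. At the Igf2r start the maternal allele differed by 0.0227 ± 3.32 points (SE) and the paternal allele by 11.6 ± 7.10 points (SE, adjusted p = 0.173), both positive where the value from all reads was lower in epiblast.

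**Figure D4:**
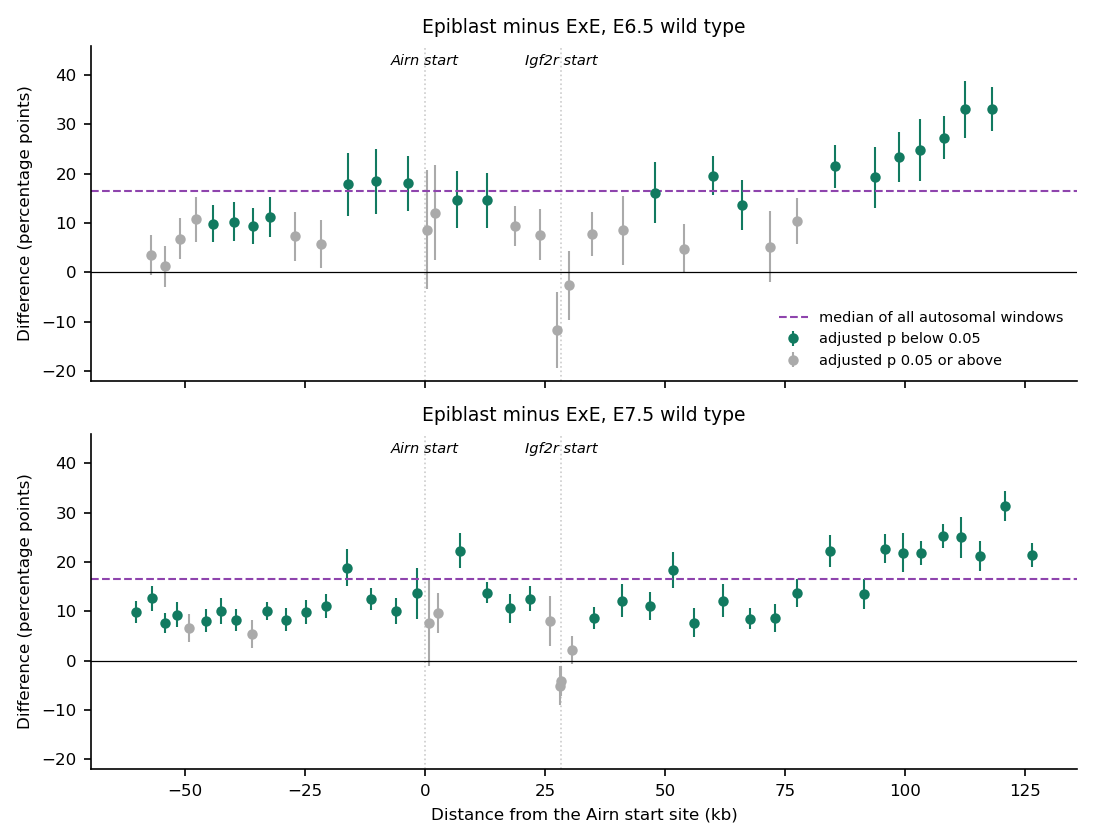
Epiblast minus ExE in percentage points for each window of the locus, against distance from the Airn start site in kb, at E6.5 (top) and E7.5 (bottom). Points are limma estimates with bars of 1 SE, green where the adjusted p was below 0.05; the dashed line is the median of all autosomal windows (16.6 and 16.5 points), which the windows at the Igf2r start fall below and the distal windows exceed.

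The reciprocal crosses asked whether the parental differences followed the parent or the strain. No window of the locus or of the autosomes was called by limma for the direction of the cross or for the strain of the allele in any tissue or day, with 2 and 5 windows of the locus at an unadjusted p under 0.05 for the cross at E6.5, 1 and 3 at E7.5, and 2 and 3 for the strain, in epiblast and ExE in turn. The gDMR window with both alleles read together was the widest apart between crosses at E7.5. It was at 41.5 and 39.3% in B6/CAST epiblast against 57.6 and 65.0% in CAST/B6 epiblast, and at 58.0 and 53.2% in B6/CAST ExE against 21.2 and 40.4% in CAST/B6 ExE. The crosses did not overlap in either tissue, and their order was opposite, with differences of -20.9 ± 4.00 points and 24.8 ± 6.83 points (B6/CAST minus CAST/B6, SE), of which neither passed the test (adjusted p = 0.877 and 0.863 from limma). The strain terms of the downstream window were 9.32 ± 4.07 points (SE) in epiblast and 0.248 ± 4.41 points (SE) in ExE, beside parental differences of 61.4 and 74.0 points. Those of the Igf2r start window were 7.03 ± 6.0 points (SE, adjusted p = 0.856 from limma) in epiblast and 9.44 ± 4.83 points (SE, adjusted p = 0.627) in ExE, beside -41.1 and -29.5 points.

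Allele values use only the reads that cross a strain polymorphism, so they were set against the value from all reads. Over 318 values in 44 windows, the value from all reads minus the mean of the alleles had a median of -1.27 points and ran from -23.2 to 38.4 points. At the Igf2r start the value from all reads was below the mean of the alleles in all 4 epiblast libraries, with differences of -2.49 and -18.6 points in B6/CAST and -4.62 and -15.7 points in CAST/B6, so paternal values near 50% there came with 6.35 to 20.2% over all reads. In ExE the same differences ran from -7.10 to 8.22 points.

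For scale, the gDMR of Kcnq1ot1, another long non-coding RNA of a maternal gDMR (chromosome 7), was read in the same libraries. At E7.5 its window at 143295640 to 143296400 was at 87.3 to 100% on the maternal allele and at 0 to 5% on the paternal allele over both tissues, with a parental difference of 93.9 ± 4.67 points (SE, adjusted p = 0.0148 from limma) in epiblast. In the window that holds its start (143296401 to 143301072) the alleles were closer. The maternal allele there was at 71.7 to 89.4% in epiblast and 68.3 to 77.3% in ExE, and the paternal allele at 66.1 to 70.0% and 30.1 to 41.5%. In the matDKO/CAST epiblast its E6.5 window over the same stretch (143295618 to 143296400) fell by 55.8 ± 11.2 points (SE, adjusted p = 0.00649 from limma), against 55.5 points in the Airn gDMR window. In ExE that window was at 0% in every matDKO/CAST library and at 54.2 to 100% in wild type. The windows at or nearest to the starts of 18 other genes around the locus, of chromosome 17, were read the same way. For the parental difference, 13 of the genes had a value in epiblast, in 11 windows, and all 18 in ExE, in 16 windows. None was called, with estimates of -12.2 to 8.07 and -6.83 to 16.8 points. The highest ExE estimate, 16.8 ± 8.07 points (SE, adjusted p = 0.784 from limma), was at Slc22a2, a transporter gene known as a target of Airn in the placenta, which had no value in epiblast, and 0.689% of tested windows had one as high. Slc22a3, another such target, differed by 2.92 ± 8.05 points (SE) in ExE and, in a window beside its start, by 1.93 ± 4.04 points (SE) in epiblast. In matDKO/CAST, 4 of 15 were called lower in epiblast and 5 of 15 in ExE, against 53.0% and 49.0% of all windows. Between tissues 7 of 16 were called higher in epiblast at E6.5 and 8 of 17 at E7.5, against 59.6% and 82.9%, and 1 was called lower at E7.5.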

How the data were processed

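Methylation was measured by PBAT in 23 libraries, 15 at E6.5 and 8 at E7.5. Per the submitters' processing notes, reads were trimmed with Trim Galore 0.4.4 and aligned with Bismark 0.20.0, while the study's methods name another version of each. The genome was GRCm38 with B6/CAST SNP positions masked, and for the E7.5 alleles reads were assigned to a strain. For matDKO/CAST, SNPs that 129 shares with CAST were left out of the masking and unassigned reads were aligned again to a 129S1/CAST genome, so processing differed between matDKO/CAST and wild type. The part of this in their differences was not tested. The authors deposited percent methylation per window of 100 CpG positions in 3 tables, without coverage, so depth is unknown and a coverage minimum was not applied. Window placement and the minimum number of reads are not given in the sources used here. Groups came from the sample labels, and 0 columns of other samples were left unused. A B6/CAST epiblast column of E6.5 could be matched to its group and not to a replicate number, and is called unnumbered.

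Percentages were compared with limma 3.58.1 (R 4.3.3) in a model that included the cross. Only autosomal windows that had no missing value among the libraries compared were tested, and their p-values were jointly corrected by the Benjamini-Hochberg method (threshold 0.05). For the alleles the tested quantity was maternal minus paternal methylation of a library, and matDKO/CAST against the mean of both wild-type crosses. Single windows were tested by exact permutation in Python 3.11.15. The fits were tested on simulated data. Figures used matplotlib 3.10.9.

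The windows described in full were those that hold, or lie nearest to, the Airn and Igf2r starts, by the GENCODE annotation of GRCm38. Where the window with the start lacked a value, the nearest complete window within 2 kb was used. Promoter segments are windows that overlap 1 kb on either side of a start. The members and lists were chosen with earlier results of these data known. Deviations of libraries with the same replicate number correlated between -0.0123 and 0.0506, with the highest values between the E7.5 tissues. That range includes matDKO/CAST with wild type, which cannot share embryos. The numbers were not taken as pairs, although such correlations of percentages of unknown depth cannot show whether libraries share an embryo. The alternatives tried were the logit scale (held between 1 and 99%), limma's trend and robust settings, at most 1 missing value, subtraction of each library's mean, no cross term, a replicate block, means over promoter windows or over the windows in the study's H3K4me3 peak at Airn, B6/CAST alone as the wild type, and leaving out each library.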

Additional observations from a re-analysis of the deposited data

Results flagged for a closer look

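Among 47 groups of values at the promoters, 8 had a library far from the rest of its group by Dixon's test, which chance alone gives in about 1 in 20 groups. No cause was tested for any of them. In E6.5 wild-type ExE, the Airn start window was at 50% in CAST/B6 replicate 2, against 74.8 to 77.5% in the other libraries. In E6.5 wild-type epiblast, the window downstream of the gDMR (chr17:12742192-12744741) was at 92.3% in B6/CAST replicate 3, against 54.9 to 68.4%. The Igf2r start window of the same tissue was at 8.95% in B6/CAST replicate 1, against 0 to 1.79%.

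At E7.5 the other 5 were epiblast values. With both alleles read together, the window downstream of the gDMR (chr17:12742377-12745796) was at 58.9% in B6/CAST replicate 2, against 70.5 to 72.6%. On the maternal allele, the Igf2r start window was at 1.52% in CAST/B6 replicate 1, against 0% in the others. On the paternal allele, the Igf2r intron window chr17:12765331-12769189 was at 100% in CAST/B6 replicate 2, against 84.4 to 85.7%. The paternal Igf2r start window was at 18.2% in B6/CAST replicate 1, against 48.1 to 50.0%, and its maternal minus paternal difference was therefore -18.2 points, against -50.0 to -46.6 points.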

How the results depend on the processing

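Of 282 alternative values for 21 results, 200 were taken as the same. A difference was the same if it kept its direction and side of the threshold. A count of called windows was the same if equal or within a ratio of 1.5. Of the rest, 35 differences no longer passed, 5 newly passed, 36 counts moved and 6 differences changed sign. Values are differences in points, with the adjusted p from limma in brackets, and unless a value or construction is named the cause was not tested. Subtracting each library's mean gave 4 calls for the E6.5 tissues, 2 with epiblast and 2 with ExE higher, in place of 19 with epiblast higher, and 15 at E7.5, 2 and 13, in place of 38. The Airn start window became 1.54 [0.868] at E6.5 and changed sign to -2.73 [0.691] at E7.5, while the Igf2r window became -28.1 [0.0227] and -20.5 [0.000485]. For matDKO/CAST it gave 0 calls in both tissues. Airn became -19.7 [0.227] in epiblast and -15.2 [0.457] in ExE, and Igf2r changed sign to 14.4 and 10.1. Without the cross term the E6.5 tissue count was 9, and the parental count in epiblast was 0 (Airn 61.4 [0.0605]). Averaging windows within 1 kb of the start gave 12.9 [0.112] for Airn in the E6.5 tissues, as did the windows of the H3K4me3 peak, and turned Igf2r to 0.258 at E7.5 and to 2.54 in matDKO/CAST ExE. With B6/CAST alone as the wild type, matDKO/CAST had 0 calls in both tissues, Airn at -41.3 [0.113] and -40.1 [0.138], and Igf2r in ExE at 0.0210, with fewer samples. On the logit scale matDKO/CAST ExE had 7 calls. The parental count was then 0 in epiblast (Airn 3.45 logits [0.378]) and 2 in ExE (Igf2r -3.66 logits [0.0136]). Trend and robust settings and allowing 1 missing value each left 0 parental calls in both tissues, with Airn unmoved at 61.4 [0.955 and 0.164] and 74.0 [0.243 and 0.0725].

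The replicate block, with numbers that were not shown to pair the samples, gave 6 calls for the E6.5 tissues (Airn 16.4 [0.191]), Airn at -39.1 [0.0753] in matDKO/CAST epiblast, and 7 calls with Airn at -26.0 [0.0709] in ExE. It changed no other call. Leaving out each library gave 9 to 17 calls for the E6.5 tissues, Airn at 11.6 to 21.7 and Igf2r at -19.7 to -2.89. At E7.5 the ranges were 35 to 39, 9.88 to 18.2 and -7.04 to -2.59. For matDKO/CAST they were 9 to 15, -62.6 to -18.6 and -8.93 to -4.38 in epiblast, and 3 to 13, -41.5 to -26.0 and -15.6 to -1.04 in ExE. For the parental difference, every such fit had 0 calls, with Airn at 60.3 to 62.4 and Igf2r at -49.1 to -33.2 in epiblast and at 70.3 to 77.8 and -33.4 to -25.6 in ExE. The mean over windows within 1 kb gave no allele value for Airn, since alleles were missing there. Depth was not given, so its part in the missing or extreme values could not be assessed.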
